A study of Homo sapiens with 8 samples.

Results

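The genes described here are the FOS and JUN families of the transcription factor AP-1 (FOS, FOSB, FOSL1, FOSL2, JUN, JUNB and JUND) together with ATF3 and EGR1, 9 of the 28518 genes counted. They were taken by name, each as its own row of the gene table, and all 9 had enough counts to be tested among the 14834 genes that were. The cells were HaCaT, a spontaneously immortalised human keratinocyte line, with CARD14 knocked out in every group. Each group received 9 ug of a plasmid that encodes CARD14, a self-cleaving peptide and eGFP. The plasmid carried CARD14 R820W, N737H or I593T, which the series text calls hypomorphic variants, or wild-type (WT) CARD14. Medium was changed 2 h after transfection, and GFP-positive cells were sorted for RNA at 24 h. There were 2 libraries a group, with the letters A and B in their titles. According to the series text the experiment was done 2 times independently, but the labels do not tie a letter to an experiment, so the p-values rest on the spread between libraries of a group, pooled over all 8 libraries, which may be technical. Cells without plasmid were not analysed here, CARD14 was expressed from a plasmid and not from its own locus, and the labels do not say whether the knockout cells were 1 clone.

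AP-1 is a dimer of basic leucine zipper proteins. JUN proteins can pair with each other or with a FOS protein, while FOS proteins need a JUN partner to bind DNA. FOS, FOSB, JUN, JUNB, ATF3 and EGR1 are immediate-early genes: their transcription starts within minutes of a growth factor, cytokine or stress signal, without new protein synthesis, and most of their RNAs are short-lived. In keratinocytes AP-1 acts on genes of the cornified envelope, on matrix proteases and on inflammatory cytokines. CARD14 is an epithelial scaffold protein that signals through BCL10 and MALT1 to NF-kB and to MAP kinases, which are routes to these genes.

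The promoters of 5 of the genes are printed here because they show which known elements sit ahead of the start. The sequences are from RefSeq (GRCh38.p14, which is not the build of the read counts), end at the base before the annotated start and run 5′ to 3′ on the gene's strand. Capitals mark the core of a cyclic-AMP response element (CRE core, TGACG) and the TATA box (TATAAA) in FOS (chr14:75278728-75278827, plus strand), FOSB (chr19:45467896-45467995, plus strand) and JUNB (chr19:12791336-12791485, plus strand), the CArG boxes in EGR1 (chr5:138465339-138465478, plus strand), and the CRE core and the site TGACATCA in JUN (chr1:58784048-58784197, minus strand).
FOS: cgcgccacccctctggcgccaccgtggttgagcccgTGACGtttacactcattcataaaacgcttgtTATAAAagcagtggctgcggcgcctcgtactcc
FOSB: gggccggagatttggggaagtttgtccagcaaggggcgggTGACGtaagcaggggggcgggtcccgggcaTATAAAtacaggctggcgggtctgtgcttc
JUN: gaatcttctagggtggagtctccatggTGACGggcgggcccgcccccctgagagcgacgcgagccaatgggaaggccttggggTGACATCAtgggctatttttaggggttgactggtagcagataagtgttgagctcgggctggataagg
JUNB: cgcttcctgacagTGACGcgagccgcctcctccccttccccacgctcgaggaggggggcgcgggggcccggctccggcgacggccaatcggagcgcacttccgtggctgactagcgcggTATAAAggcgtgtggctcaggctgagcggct
EGR1: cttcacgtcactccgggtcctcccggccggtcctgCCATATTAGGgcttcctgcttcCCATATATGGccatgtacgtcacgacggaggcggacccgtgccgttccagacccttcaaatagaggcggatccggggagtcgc

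FOS and FOSB had the same layout, with the core at -64 to -60 and the TATA box at -33 to -28 in FOS, and at -60 to -56 and -30 to -25 in FOSB. JUNB carried its core farther out, at -137 to -133, with the TATA box at -31 to -26. JUN had the core at -123 to -119 and TGACATCA, the AP-1-like element through which JUN is known to drive its own gene, at -67 to -60. EGR1 had CArG boxes, the binding sequence of serum response factor, at -105 to -96 and -83 to -74. Motifs were searched on both strands from 250 bases before to 50 after the start in 9 windows of 8 of the genes (ATF3 has 2 windows; FOSL1 was not searched) and in all 35116 RefSeq windows. The core TGACG was in 7 of the 9 windows and in 24.6% of all windows, and the whole element TGACGTCA, which contains it, was in JUND and in 1.85% of windows. The letters TATAAA were in FOS, FOSB, JUNB and ATF3, against 11.5% of all windows. In ATF3 they lay at -230 to -225, not near the start as in FOS, FOSB and JUNB. TGACATCA was in JUN and ATF3, against 2.61%, and the CArG box in EGR1, against 1.29%. The AP-1 site TGANTCA was in FOSL2 (7.71% of all windows), the EGR site GCGNGGGCG in EGR1 (9.43%), and the NF-kB site in 0 of the 9 windows (5.91%). These matches describe letters only, and elements more than 250 bases ahead of the start were outside the search.

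Libraries held 17892608 to 24629860 counts and 17836 to 21059 genes with a count, the most in N737H library B. CARD14 RNA was at 1410 CPM (counts scaled to the normalised library size) in R820W library B and 1190 in A, 1005 and 444 for N737H, 1394 and 500 for I593T, and 978 and 1127 for WT. The N737H and I593T A libraries were thus the lowest in the transfected gene. All 10 keratinocyte markers were above 1 CPM, with a summed level of 4413 to 7324 CPM. No fibroblast (0 of 8) or endothelial (0 of 5) marker had a mean above 1 CPM, though PECAM1 reached 1.57 and CDH5 1.28 CPM in a library. Of the leukocyte markers 1 of 7 had a mean above 1 CPM, CD68 (summed level 49.2 to 82.7 CPM), and of the melanocyte markers 3 of 6, with TYR at 0 (8.78 to 14.1 CPM).

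Per length of exon, FOSL1 was the most abundant of the genes, at a mean of 195 CPM per kb over the 8 libraries (range 108 to 357). FOS followed at 80.6 (38.7 to 146) and EGR1 at 30.7 (21.5 to 36.9). ATF3 stood at 12.2 (4.96 to 19.5), JUNB at 8.0 (4.20 to 18.9), FOSB at 3.05 (1.97 to 4.49) and JUN at 2.83 (0.956 to 8.19). FOSL2 at 1.03 (0.701 to 1.27) and JUND at 0.541 (0.259 to 0.797) were lowest. The ranges of neighbours in this order overlapped, except those of FOS with EGR1 and of EGR1 with ATF3. By read counts, FOSL1 and FOS, and not a JUN gene, thus had the highest AP-1 RNA levels per length in these keratinocytes. The exon lengths are from another build than the counts, and how evenly the libraries captured different genes was not tested. JUND, which most tissues express steadily, was close to the limit of testing, with 11 to 30 counts in a library.

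FOS, the first-described partner of JUN, differed more between the 2 WT libraries than between any group means. It was at 428 CPM in R820W library B and 301 in A, 118 and 218 in N737H, 197 and 188 in I593T, and 331 and 114 in WT. The 2 WT libraries lay on either side of both N737H and both I593T libraries, and only the R820W libraries overlapped WT from above. Means were 364 ± 89.7 CPM with R820W, 168 ± 70.7 with N737H, 193 ± 6.07 with I593T and 223 ± 154 with WT (SD, n = 2 each). The log2 fold changes over WT were 0.71 ± 0.47 (SE) for R820W, -0.40 ± 0.47 for N737H and -0.21 ± 0.47 for I593T. The R820W value was 0.18 without WT library A and 1.68 without WT library B.

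FOSB is a close relative of FOS whose RNA is also made as a shortened, longer-lived protein form by splicing. Among these genes, FOSB had the largest share of its own variance of log2 CPM between constructs (85.1%). It was at 24.9 CPM in R820W library B and 22.3 in A, 12.5 and 16.7 in N737H, 21.4 and 15.2 in I593T, and 11.3 and 10.9 in WT. All 6 variant libraries were above both WT libraries, the R820W pair were the highest of the 8, and the N737H and I593T pairs overlapped each other. With R820W the mean was 23.6 ± 1.90 CPM against 11.1 ± 0.248 with WT (SD, n = 2 each), a log2 fold change of 1.08 ± 0.24 (95% interval 0.53 to 1.64). FOSB ranked first of all 14834 genes by unadjusted p in that comparison, and its adjusted p was 1.00 in edgeR. With I593T the change was 0.72 ± 0.24 (interval 0.17 to 1.27, adjusted p = 1.00 in edgeR), and with N737H 0.39 ± 0.24 (-0.16 to 0.94). The R820W change stayed between 1.02 and 1.17 when any library was left out, and the I593T change between 0.45 and 0.94. FOSB lies across from ERCC1 on the opposite strand, and whether counting used strand is not given in the sources used here. ERCC1 was at 55.1 to 68.2 CPM over the 8 libraries, with changes of -0.08, -0.19 and -0.07 for R820W, N737H and I593T over WT.

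FOSL1, or FRA-1, is a late and stable FOS family protein that ERK signalling maintains and that is prominent in migrating and transformed epithelial cells. It was at 276 CPM in R820W library B and 304 in A, 404 and 232 in N737H, 657 and 325 in I593T, and 199 and 481 in WT. I593T library B was the highest, and the WT libraries again spanned most of the range, in the opposite order to FOS. Its changes over WT were -0.23 ± 0.47, -0.10 ± 0.47 and 0.53 ± 0.47 for R820W, N737H and I593T. Without WT library A all 3 were above 0, at 0.58, 0.73 and 1.35. FOSL2, or FRA-2, was at 7.66 CPM in R820W library B and 6.63 in A, 6.59 and 6.01 in N737H, 8.61 and 7.25 in I593T, and 8.35 and 4.76 in WT, with all variant libraries within or just above the WT range. Its changes were 0.12 ± 0.31, -0.06 ± 0.31 and 0.27 ± 0.31.

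**Figure D1:**
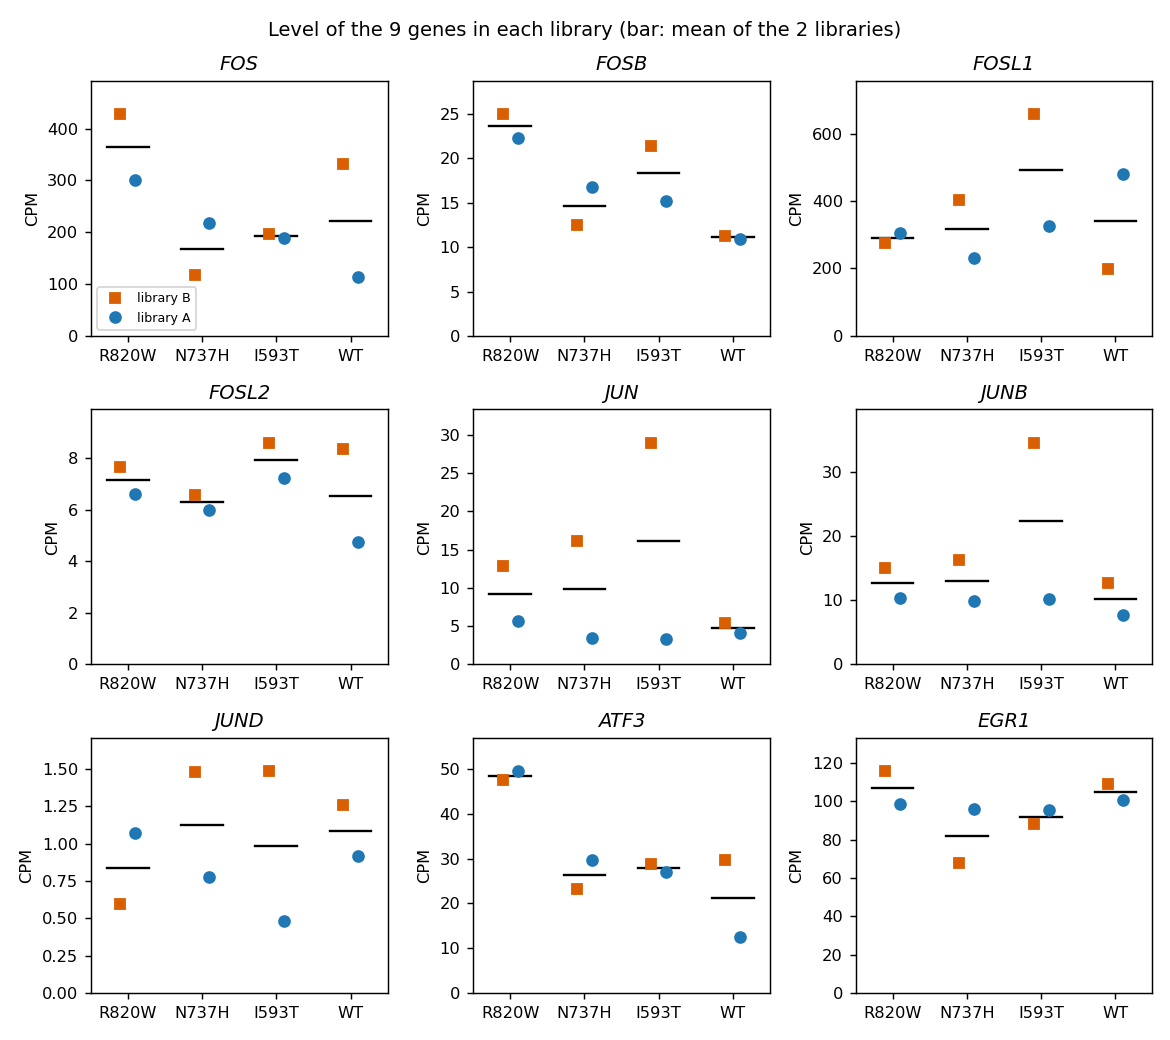
Level of each of the 9 genes in CPM (vertical axes from 0) by construct, with library B as a square, library A as a circle and a bar at the mean of both. FOSB was higher in all 6 variant libraries than in either WT library, FOS and FOSL1 were far apart in the 2 WT libraries, and the B libraries of JUN reached 28.99 CPM in I593T.

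JUN, the core partner that every FOS protein can use, was split by library letter in the variant groups. It was at 12.8 CPM in R820W library B and 5.65 in A, 16.1 and 3.49 in N737H, 28.99 and 3.38 in I593T, and 5.45 and 4.08 in WT. The 3 variant B libraries were the highest, and the N737H and I593T A libraries were below both WT libraries. The change over WT was 0.95 ± 0.98 for R820W, 1.04 ± 0.98 for N737H and 1.76 ± 0.99 for I593T. Without its B library the I593T value was -0.49, and the N737H value without its own was -0.43. JUNB, which can take the place of JUN in dimers and often restrains it, was at 15.1 CPM in R820W library B and 10.3 in A, 16.2 and 9.84 in N737H, 34.5 and 10.1 in I593T, and 12.7 and 7.65 in WT. I593T library B stood alone at the top and its A library lay between the WT libraries. The changes were 0.32 ± 0.55, 0.36 ± 0.55 and 1.13 ± 0.55 for R820W, N737H and I593T, and the last was -0.01 without I593T library B. JUND was at 0.598 to 1.48 CPM in the variant B libraries, 0.483 to 1.07 in the variant A libraries, and 1.26 and 0.916 in WT libraries B and A. At 11 to 30 counts a library no difference in JUND was detectable (SE 0.66 to 0.67 in each comparison with WT).

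ATF3, a stress-induced zipper protein that binds CRE-like sites and mostly represses, was highest with R820W. It was at 47.7 CPM in R820W library B and 49.6 in A, 23.2 and 29.7 in N737H, 28.8 and 27.1 in I593T, and 29.7 and 12.6 in WT. The R820W libraries were above all 6 others, WT library A was below all others, and WT library B was close to the N737H and I593T libraries. The mean was 48.6 ± 1.36 CPM with R820W against 21.1 ± 12.1 with WT (SD, n = 2 each), a log2 fold change of 1.20 ± 0.35 (95% interval 0.39 to 2.02, adjusted p = 1.00 in edgeR). ATF3 was seventh by unadjusted p in that comparison, and its change was 0.75 without WT library A and 1.94 without WT library B. With N737H and I593T the changes were 0.32 ± 0.35 and 0.40 ± 0.35, and without WT library A they were -0.11 and -0.04.

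EGR1, a zinc-finger factor induced through serum response factor, was the steadiest of the genes. It was at 116 CPM in R820W library B and 98.5 in A, 67.6 and 95.9 in N737H, 87.9 and 95.6 in I593T, and 109 and 100.4 in WT. The 4 A libraries lay within 95.6 to 100.4 CPM, while the B libraries ran from 67.6 in N737H to 116 in R820W. Both N737H and both I593T libraries were below both WT libraries, with changes of -0.36 ± 0.20 (95% interval -0.81 to 0.09) and -0.19 ± 0.20 (-0.64 to 0.26). The change with R820W was 0.03 ± 0.20 (-0.42 to 0.48). Without N737H library B the N737H change was -0.11.

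**Figure D2:**
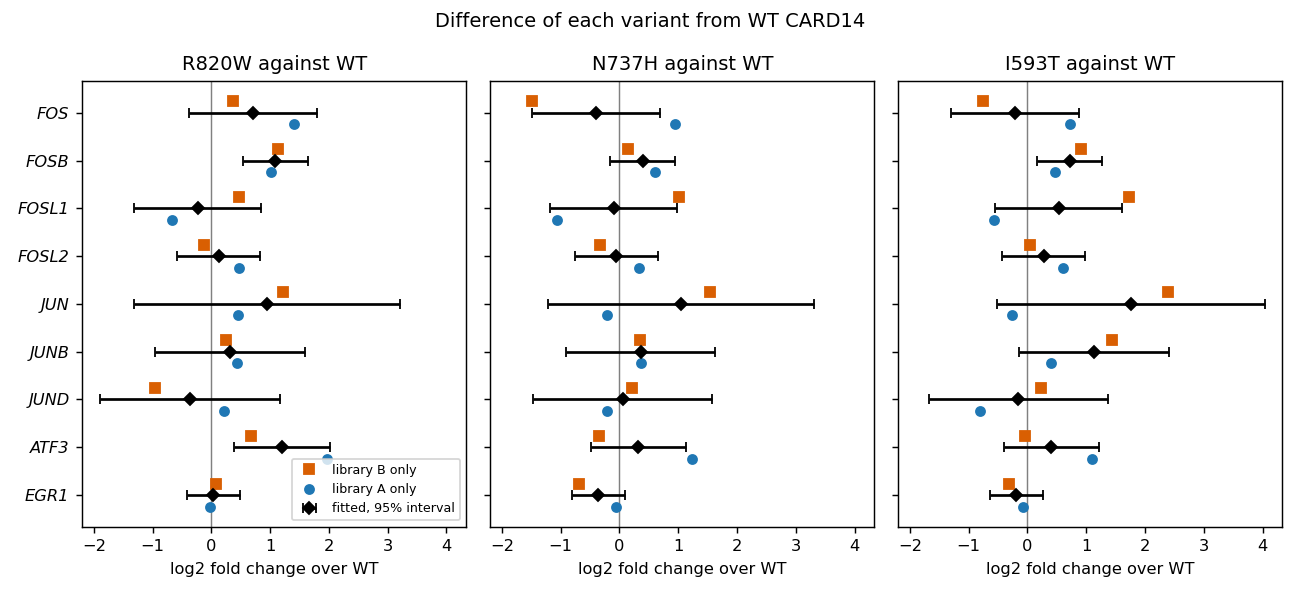
Log2 fold change of each gene over WT for the 3 variants: diamonds and bars give the fitted value with its 95% interval, squares the difference between the B libraries and circles the difference between the A libraries. The intervals of FOSB (R820W and I593T) and ATF3 (R820W) lie above 0. With N737H and I593T the squares and circles fall on opposite sides of 0 for FOS, FOSL1, JUN, JUND and ATF3. They also do so for FOSL2 with N737H, and for FOSL1, FOSL2, JUND and EGR1 with R820W.

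No gene in the table passed the adjusted threshold of 0.05 in edgeR for any variant against WT, so the 9 genes had 0 calls of 9 against a background of 0% in each. Unadjusted p was under 0.05 for FOSB and ATF3 with R820W, against 1.04% (154) of tested genes, for none of the 9 with N737H, against 2.44% (362), and for FOSB with I593T, against 1.43% (212). DESeq2 called 0, 1 and 2 genes in the 3 comparisons and limma voom called 0 in each, with none of the 9 among them. FOSB, JUN and ATF3 had both R820W libraries above both WT libraries, a state that 12.6% of tested genes shared, and none of the 9 had both below (12.8% of genes). FOSB was wholly above WT with N737H and with I593T (9.92% and 9.61% of genes), and EGR1 wholly below in both (12.4% and 11% of genes). These comparisons share the WT libraries. The 9 genes' median change over WT was 0.32 with R820W, 0.05 with N737H and 0.40 with I593T, beside medians of -0.01, -0.03 and -0.02 over all tested genes. With R820W 7 were higher and 2 lower (48% and 52% of tested genes), with N737H 5 and 4 (45.8% and 54.2%), and with I593T 6 and 3 (45.6% and 54.4%). In size without sign, their median changes were 0.36, 0.36 and 0.40, beside 0.16, 0.19 and 0.17 over all tested genes. With the letter as a block in edgeR, JUNB joined FOSB with I593T in having an unadjusted p under 0.05 (3.37% of genes). Which of the 9 were below it was unaltered for R820W and N737H, where 384 and 670 of all 14834 tested genes were. In bulk RNA, fewer cells that express a gene and less RNA per cell cannot be told apart.

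Taking the 3 variants as 1 group, FOSB averaged 18.8 CPM against 11.1 with WT, a log2 fold change of 0.73 ± 0.20 (95% interval 0.27 to 1.20, adjusted p = 1.00 in edgeR). It was the only one of the 9 with 6 of 6 variant libraries above both WT libraries, which held for 2.47% of tested genes, and none of the 9 was wholly below (3.13%). By sign alone 7 of the 9 were higher and 2 lower, beside 46% and 54% of tested genes. FOSB ranked fifteenth by unadjusted p and alone of the 9 had p under 0.05, as did 1.31% (195) of tested genes, and 0% passed the adjusted threshold. With the letter as a block ATF3 was also under 0.05 (3.55% of genes). ATF3 averaged 34.3 CPM against 21.1 (0.64 ± 0.30), JUN 11.7 against 4.76 (1.25 ± 0.85) and JUNB 16.0 against 10.2 (0.60 ± 0.47). FOS at 242 against 223 CPM (0.03 ± 0.39) and FOSL1 at 366 against 340 (0.07 ± 0.38) were near equal in their means, with intervals of -0.86 to 0.92 and -0.82 to 0.95.

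Between variants, R820W had the higher FOS, FOSB and ATF3. Against N737H, FOS was at 364 against 168 CPM (log2 fold change 1.12 ± 0.48), FOSB at 23.6 against 14.6 (0.69 ± 0.24) and ATF3 at 48.6 against 26.4 (0.88 ± 0.35), each with an adjusted p of 1.00 in edgeR. These 3 of the 9 had p under 0.05, beside 1.63% of tested genes, and 0% of genes passed after adjustment. With the letter as a block FOS was no longer under 0.05, and FOSB and ATF3 were (3.55% of genes). FOSL2 and EGR1 joined them in having both R820W libraries above both N737H libraries, 5 of the 9 where 15.2% of genes did so, and none lay wholly below (13.1%). Leaving out any library kept the FOS difference within 0.70 to 1.64, the FOSB difference within 0.45 to 0.93 and the ATF3 difference within 0.67 to 1.08. Against I593T, FOS (0.92 ± 0.48), FOSB (0.37 ± 0.24), ATF3 (0.80 ± 0.35) and EGR1 (0.22 ± 0.20) were wholly higher in R820W (14.9% of genes) and FOSL1 (-0.76 ± 0.47) wholly lower (13.2%), with no p under 0.05 among the 9 (1.23% of genes) and 0% of genes past adjustment. With the letter as a block ATF3 was under 0.05 in that comparison (2.6% of genes). N737H was lower than I593T in 8 of the 9, beside 51.5% of all genes, with a median of -0.32 beside -0.01. The pairs were separate for FOSL2 alone, which was lower (10.7% of genes, and 9.65% wholly higher). No p was under 0.05 among the 9 (1.14% of genes), and 0% of genes passed. CARD14 RNA itself was higher in both R820W libraries than in both N737H libraries (1300 against 725 CPM, 0.84 ± 0.49). It was also higher there than in both WT libraries (1300 against 1053 CPM, 0.30 ± 0.49). The part of CARD14 RNA in these differences, and in those of R820W from WT, was not tested.

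The largest split of JUN and JUNB was by library letter. JUN averaged 15.9 CPM in the 4 B libraries against 4.15 in the 4 A libraries (log2 difference within construct 1.74 ± 0.41, adjusted p = 0.070 in edgeR), and was higher in B in all 4 constructs. JUNB averaged 19.6 CPM in B, lowest 12.7 and highest 34.5, against 9.49 in A, lowest 7.65 and highest 10.3, with no overlap (0.95 ± 0.21, adjusted p = 0.064 in edgeR). Neither passed in edgeR, where 3.24% (480) of all tested genes did, 1.71% higher and 1.52% lower in B, and 23% had an unadjusted p under 0.05. The 480 were not stable. Leaving out a library of R820W or I593T lowered the number strongly, and leaving out a WT library raised it. Each omission removes that construct from the comparison of letters, so the shift cannot be laid to a single library. JUNB was among the 8% of genes wholly higher in B, and none of the 9 was wholly lower (10%). Both passed in DESeq2, with an adjusted p of 0.00016 for JUN and 0.0019 for JUNB, and JUN in limma voom, at 0.049. Over all alternatives the adjusted p ran from 0.00016 to 0.22 for JUN and from 0.0019 to 0.20 for JUNB, and the difference stayed positive, at 1.27 to 2.15 for JUN and 0.66 to 1.08 for JUNB with any library left out. The other 7 genes differed by -0.07 (EGR1) to 0.55 (JUND), none with an unadjusted p under 0.05.

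HOOK2, which overlaps JUNB on the opposite strand, moved with the letter as well. It was at 23.6 to 50.8 CPM in the B libraries and 14.9 to 23.8 in the A libraries and passed (0.89 ± 0.14, adjusted p = 0.028 in edgeR), though not without R820W library A, where 0 genes passed. If counting ignored strand, reads of the overlapping parts of JUNB and HOOK2 cannot be told apart. CARD14 RNA also averaged higher in B, at 1197 CPM against 815 in A (0.68 ± 0.27, adjusted p = 0.20 in edgeR), and its part in the split of JUN was not tested.

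The split by construct and by letter can be put side by side as shares of each gene's variance of log2 CPM over the 8 libraries. There are more constructs than letters, so noise alone would put a larger share between constructs than between letters. The shares are a description and were not tested. For FOSB 85.1% lay between constructs and 0.652% between letters. ATF3 followed with 68.9% and 3.84%, and EGR1 with 55.9% and 2.44%. JUN was the reverse, with 13.8% between constructs and 64.0% between letters, as was JUNB with 28.1% and 56.8%. FOSL1 followed neither, with 73.1% left to the combination of construct and letter, which with 1 library each also holds the noise. FOS had 47.4% between constructs, 5.81% between letters and 46.8% in the combination. Over the 9584 tested genes of at least 5 CPM the median shares were 28.7% for construct, 27.0% for letter and 31.0% for their combination. The spread itself was wide: the SD of log2 CPM over the 8 libraries was 1.14 for JUN, 0.68 for FOS, 0.66 for JUNB, 0.62 for ATF3, 0.57 for FOSL1 and 0.46 for FOSB, against a median of 0.20 over those genes, and EGR1 with 0.23 was near that median.

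**Figure D3:**
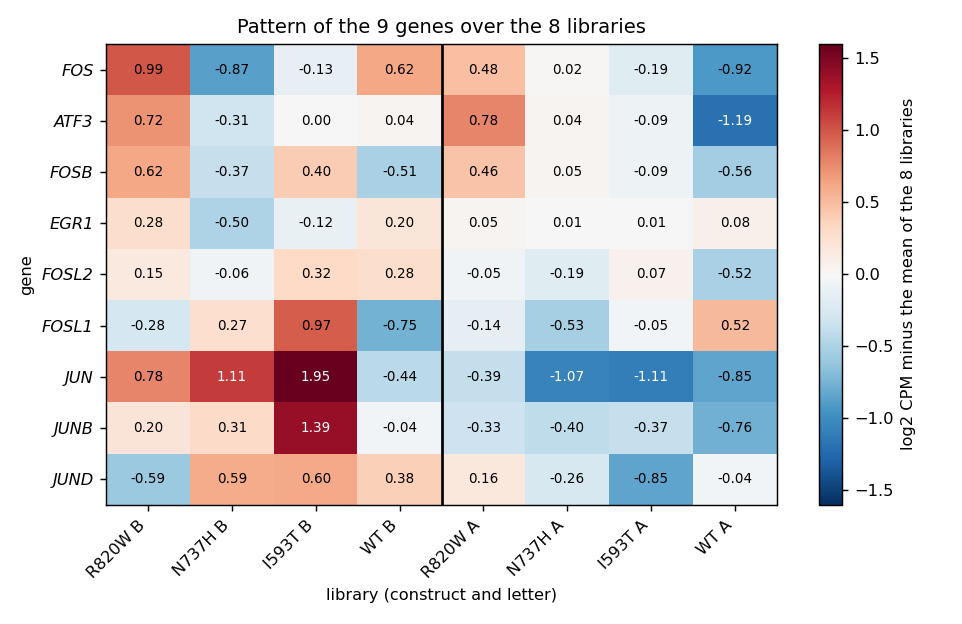
Log2 CPM of each gene minus its mean over the 8 libraries, with the 4 B libraries left of the line and the 4 A libraries right of it; red is above and blue below the gene's mean. JUN and JUNB are red in most B libraries and blue in the A libraries, whereas FOSB and ATF3 are red in both R820W libraries.

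FOS and FOSL1 were far apart from each other in several libraries, and not always the same way round. The ratio of FOS to FOSL1 in CPM was 1.55 in R820W library B and 0.991 in A, 0.293 and 0.942 in N737H, 0.300 and 0.579 in I593T, and 1.66 and 0.236 in WT. WT library B thus had the highest ratio and WT library A the lowest. Against the WT library of the same letter, FOS was 0.37 higher in B and 1.40 higher in A with R820W on the log2 scale. With N737H the FOS differences were -1.49 in B and 0.94 in A, and with I593T -0.75 and 0.73. For FOSL1 they were 0.47 in B and -0.66 in A with R820W, 1.02 and -1.05 with N737H, and 1.72 and -0.57 with I593T. These differences share the WT library of their letter, and with 1 library for each construct and letter a difference between the letters in the effect of a construct could not be tested.

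**Figure D4:**
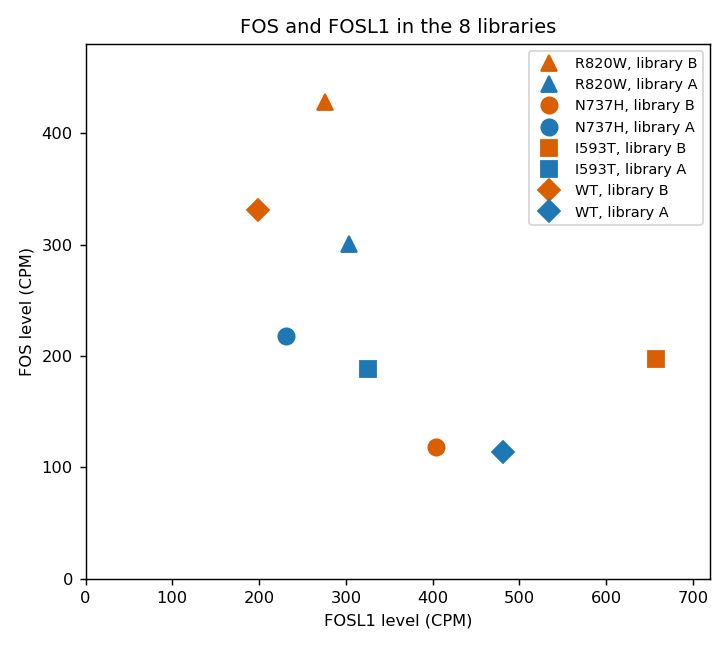
FOS level (vertical axis, CPM) against FOSL1 level (horizontal axis, CPM) in the 8 libraries, with constructs by marker shape and letters by colour (orange B, blue A). WT library B and R820W library B have much FOS with little FOSL1, WT library A and N737H library B have little FOS with more FOSL1, and I593T library B lies apart at the highest FOSL1.

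The genes whose log2 CPM followed a member most closely over the 8 libraries, among 9583 others of at least 5 CPM, are given with Pearson's r as a description, since the libraries share letters and constructs. FOS was followed by CCDC24 (0.97), TNFAIP2 (0.96) and CAMK2G (0.96), and FOSB by IFNAR2 (0.91), LRRC14 (0.90) and SELRC1 (0.90). For FOSL1 they were RGMB (0.98), CUL4A (0.98) and CEBPG (0.97), and for FOSL2 they were GGA3 (0.98), MPST (0.97) and RAB17 (0.97). JUN ran with CTU2, SREBF2 and INSIG1 (0.99 each), and JUNB with YDJC, LSM4 and TACO1 (0.99 each). ATF3 ran with CDK12, GBP5 and PDCD2 (0.96 each), and EGR1 with THBD (0.95), MOB3C (0.94) and SLC10A3 (0.93). INSIG1, which holds back sterol synthesis, spanned 14.8 to 124 CPM. No member of the 9 was among the 3 closest to another.

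Other immediate-early genes were mixed. Of 25 listed, 20 were tested (EGR2, EGR3, EGR4, NR4A3 and KLF2 were too low), and none passed for a variant against WT. With R820W 15 were higher and 5 lower (median 0.17 beside -0.01 over all genes), with N737H 6 and 14 (-0.16 beside -0.03), and with I593T 11 and 9 (0.07 beside -0.02). CYR61, a secreted matrix protein gene, had the smallest p among the higher ones for each variant, at 100.2 CPM in R820W cells, 118 in N737H cells and 185 in I593T cells, against 51.3 in WT cells. Its changes were 0.96 ± 0.40, 1.20 ± 0.41 and 1.85 ± 0.41. For I593T it passed in DESeq2 (adjusted p = 0.025) and in edgeR without a filter on low counts (adjusted p = 0.00075). It did not pass in the main edgeR test (adjusted p = 1.00), and the adjusted p ran from 0.00075 to 1.00 over all alternatives. The smallest p among the lower ones was that of IER5 with R820W (-0.30 ± 0.29) and of HBEGF, an EGF receptor ligand, with N737H (-1.12 ± 0.39) and I593T (-0.62 ± 0.39). Without WT library A, HBEGF was at -0.25 with N737H and 0.24 with I593T. By letter KLF6, a zinc-finger factor, fell in B (83.2 against 131 CPM, -0.65 ± 0.09, adjusted p = 0.020 in edgeR, and 0.11 to 0.14 without either library of R820W or of I593T).

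The kinases and factors that lead to AP-1 showed no call for a variant. All 16 listed were tested, with 6 higher and 10 lower for R820W (median -0.02), 4 and 12 for N737H (-0.15) and 9 and 7 for I593T (0.05). The members of smallest p were ELK1 (0.14) and MAP2K1 (-0.34) with R820W, MAPK7 (0.40) and MAPK3 (-0.70) with N737H, and MAPK7 (1.12) and ELK3 (-0.40) with I593T. MAPK8, which encodes the JUN kinase JNK1, rose in the B libraries, at 15.9 CPM against 4.76 in A (1.81 ± 0.31, adjusted p = 0.032 in edgeR, and 0.079 to 0.19 without either library of R820W or of I593T). JUN averaged 15.9 CPM in B and 4.15 in A, and a link of MAPK8 RNA to that split was not tested.

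No partner or regulator of the 9 genes passed for a variant. Of 11 other zipper genes that can pair with AP-1 proteins or bind like them, 8 were tested, with 4 higher and 4 lower for R820W, 3 and 5 for N737H, and 4 and 4 for I593T (medians 0.02, -0.08 and 0.02). The smallest p values were those of MAFG (0.23) and MAFK (-0.22) with R820W, and of MAFF and ATF7 with N737H (0.52 and -0.31) and I593T (1.33 and -0.19). MAFF with I593T was -0.06 without I593T library B, the library in which JUN and JUNB stood highest. The EGR1 co-repressors NAB1 and NAB2 were at 0.14 and 0.00 with R820W, and NAB2 was at 0.11 with N737H, where both were higher, and at 0.95 ± 0.47 with I593T, where NAB1 was at -0.06. Of the 6 listed partners and inducers of ATF3 in the stress response, 2 were higher with R820W, 1 with N737H and 3 with I593T (medians -0.14, -0.10 and 0.02). They included ATF4, the factor that drives ATF3 under amino acid or endoplasmic reticulum stress (0.13 ± 0.17 with R820W), CEBPD (-1.58 with R820W and -0.996 with N737H, at under 0.5 CPM), CEBPG (0.18 with N737H and 0.51 with I593T) and DDIT3 (-0.05 with I593T).

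AP-1 target genes of keratinocytes were mostly lower with N737H. Of 21 listed, 20 were tested (LOR was too low; HBEGF is also among the immediate-early genes and KRT6A among the keratinocyte markers), and with N737H 18 were lower and 2 higher (median -0.49 beside -0.03 over all genes), 15 lower in B (median -0.49) and 16 in A (median -0.41). With I593T 17 were lower and 3 higher (-0.23 beside -0.02), but 11 lower in B (median -0.14) and 15 in A (median -0.21). With R820W 11 were lower and 9 higher (-0.08 beside -0.01), 12 lower in B (median -0.12) and 11 in A (median -0.04). None passed for a variant. SPRR1B, a cornified envelope precursor, was at 9.87 CPM with N737H against 25.8 with WT (-1.39 ± 0.27), and passed only in DESeq2 with the letter as a block (adjusted p = 0.0057, and up to 1.00 in the other alternatives). SPRR1A was at 4.24 CPM with I593T against 10.8 with WT (-1.34 ± 0.38). Among the proteases, MMP3 was at 1.74 CPM with R820W against 6.66 with WT (-1.93 ± 0.83) and MMP9 at 40.05 against 20.1 (1.00 ± 0.47). MMP3 was at 0.22 without WT library A, and MMP9 at 0.08 without R820W library A. The higher ones of smallest p were IVL with N737H (0.49) and the cyclin gene CCND1 with I593T (0.67). R820W was above N737H in 17 of the 20 (median 0.55 beside -0.02 over all genes).

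By letter 6 of these 20 targets fell in B and none rose, where 1.52% of all tested genes fell and 1.71% rose. All 6 lost the call without either R820W library or I593T library A, and 5 of them without I593T library B. The 2 of smallest p were SPRR2A, at 3.22 CPM in B against 9.93 in A (-1.64 ± 0.16, adjusted p = 0.0070 in edgeR), and the plasminogen activator gene PLAU, at 419 against 765 (-0.85 ± 0.09, adjusted p = 0.0073 in edgeR). Without a library of R820W or I593T the adjusted p was 0.049 to 0.095 for SPRR2A and 0.068 to 0.095 for PLAU. Over the 20 targets 14 were lower in B, with a median of -0.41 beside 0.03 over all genes. JUN and JUNB averaged higher in the same libraries, and a link with the targets was not tested.

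**Figure D5:**
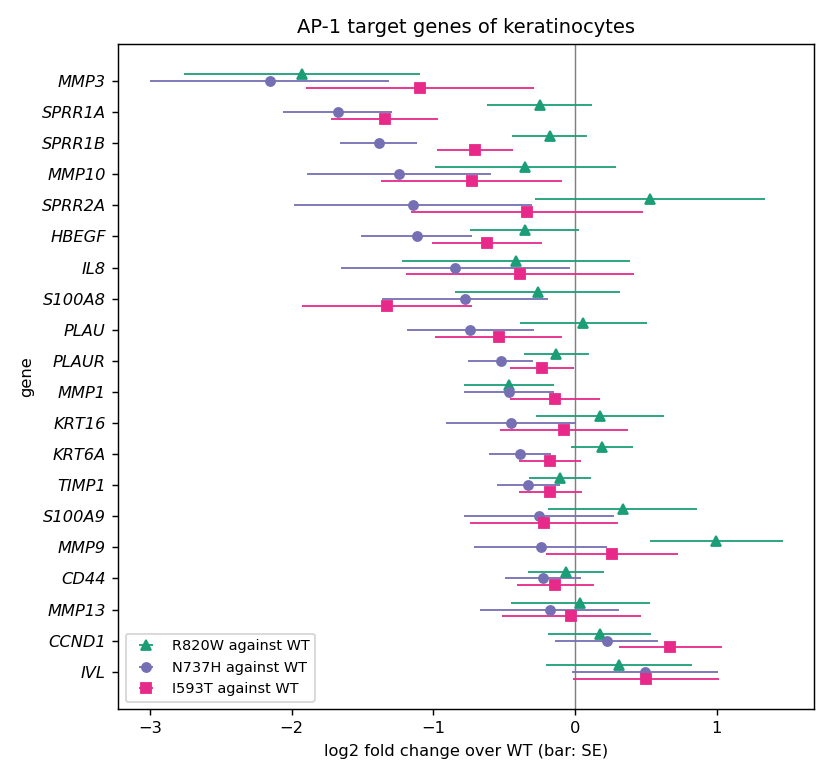
Log2 fold change over WT (horizontal axis, bar: SE) of the 20 tested AP-1 target genes, ordered by the N737H value, for R820W (triangles), N737H (circles) and I593T (squares). With N737H 18 of the 20 lie below 0, and with R820W they lie on both sides of 0.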

How the data were processed

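The authors deposited 1 table with a whole-number count of reads for each gene symbol and library, not normalized. Build hg19 and the tools FastQC, MACS2 and DESeq2 are listed, without versions or roles, per the submitters' processing notes. For aligner, counter, annotation and strand the answer is not given in the sources used here, so reads shared by overlapping genes may have been split in unknown ways. Per the labels' protocols, a mirVana kit gave the RNA and a NEBNext low-input kit the libraries.

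Genes were filtered with edgeR's filterByExpr, leaving 14834 genes with 99.9% of the counts, and tested with edgeR 4.0.16 (R 4.3.3), quasi-likelihood F test, two-sided, on all 8 libraries with group means and TMM normalization. P-values were adjusted by Benjamini-Hochberg over all tested genes, threshold 0.05. Each SE and 95% interval was derived from a fold change and its F value. CPM and within-letter differences are from edgeR's cpm (prior count 2 on the log2 scale). Letters were compared in a fit with group and letter. Alternatives were RLE normalization, 2 other filters, DESeq2 1.42.0, limma 3.58.1 voom, the letter as a replicate block, CARD14 removed, a fit of 2 groups alone, and the omission of each library in turn. The test was checked on simulated counts.

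Members, lists and the naming rule were chosen with earlier results of these data known. The rule names the 9 genes always, of each list the members past the threshold (at most 2 a direction) or else those of smallest p in each direction against WT, and the 3 most similar genes. Exon lengths are from a GRCh38 annotation. Deviations from group means correlated at 0.31 to 0.41 between libraries of the same letter, except WT with N737H (0.024). The coefficient of variation shared by all genes was 0.26 without the letter as a block and 0.19 with it. The labels do not say that the letters pair the libraries, so the main test left the block out. The fit with the block was run as an alternative. The smallest chi-square per gene between libraries was 6.36, above what sequencing the same library again would give. It cannot tell whether libraries came from the same culture or RNA.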

Additional observations from a re-analysis of the deposited data

Results flagged for a closer look

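JUNB was unusual in 1 of 18 sets of 4 libraries examined (each gene within the B and within the A libraries). In the A libraries WT was at 7.65 CPM, against 9.84 to 10.3 CPM in the 3 variants, and its gap to the nearest of them was 0.836 of the whole range on the log2 scale, just above Dixon's 95% critical value for 4 libraries. Chance alone marks about 1 such set in 20.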

How the results depend on the processing

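Of 806 values of the 9 genes under alternatives, 774 stayed on their side of the threshold with their sign kept or a shift under 1 SE, 21 changed sign with a larger shift and 11 passed where the main value had not, all of these for JUN or JUNB between letters. None of the 9 passed for a variant against WT under any alternative, with the lowest adjusted p 0.143 for ATF3 and 0.172 for FOSB, both with R820W. Counts of called genes, 0 in the main test between constructs, were as follows. Without a filter they were 2, 2 and 8 for R820W, N737H and I593T against WT, 2 for the mean of variants, 8 for R820W against N737H, 10 for R820W against I593T and 11 for N737H against I593T. DESeq2 gave 1 for N737H and 2 for I593T against WT and 3 for R820W against N737H. The replicate block gave 1 for R820W against N737H and 0 elsewhere, and no other call changed with it. DESeq2 with the replicate block gave 1, 23 and 4 against WT for R820W, N737H and I593T, 4 for the mean, 30 for R820W against N737H, 8 for R820W against I593T and 1 for N737H against I593T. Leaving out 1 library gave 0 to 3 for I593T against WT (3 without I593T A, 1 without WT B), 0 to 1 for the mean (without WT B), and 0 to 3 for R820W and for N737H against I593T (without I593T A). A lone library was then assumed to vary like the other groups. Between letters the 480 calls became 760 without a filter, 1321 in DESeq2 and 1324 without the group term. They ran from 0 (without R820W A) to 1069 (without WT A), with 10 without R820W B, 31 or 32 without an I593T library and 1010 without WT B; each omission removes that construct from the comparison of letters. Depth limits JUND most among the 9, at 11 to 30 counts.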
